A study of Mus musculus with 6 samples.

Results

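The enzymes that cross-link the bone matrix were examined as 10 genes, namely the 5 lysyl oxidases *Lox*, *Loxl1*, *Loxl2*, *Loxl3* and *Loxl4*, the 3 lysyl hydroxylases *Plod1*, *Plod2* and *Plod3*, and the transglutaminases *Tgm2* and *F13a1*. They were chosen by gene symbol from the 23284 genes listed for each sample, and all 10 were found and were above 0 in all 6 samples. The samples were ECFP+ osteoblasts (OBs), sorted from ectopic bone that formed in *Col2.3*-ECFP mice around an implanted collagen sponge with BMP-2, 3 samples at day 10 and 3 at day 14 of the implant. All mice were male and 12 to 16 weeks old, each sponge carried 2.5 μg of recombinant human BMP-2, and no sponge without BMP-2 and no skeletal bone was sequenced. A fragment of the type I collagen promoter drives the cyan fluorescent protein in these mice, so the sort selected cells by the activity of a collagen promoter, and CD45+ and dead cells were gated out. Collagenase digestion was done 1 time for day 10 bone but 2 times for day 14 bone, and its effect and that of the day cannot be told apart. The sample titles call the samples of a day biological replicates, without saying whether each was 1 mouse, and the free-text descriptions give day 14, 15 and 16 for day 14 replicates 1, 2 and 3.

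Collagen leaves the cell as a soluble precursor and gains its strength outside it, through covalent bonds between neighbouring molecules. Lysyl hydroxylases act first, inside the endoplasmic reticulum, where they add hydroxyl groups to lysines of the growing chain. Lysyl oxidases, which are secreted copper enzymes, then turn lysines and hydroxylysines at the ends of the molecules into reactive aldehydes that join into cross-links. Transglutaminases form a different bond, between glutamine and lysine side chains, and act on fibronectin, osteopontin and other matrix proteins. In bone, the cross-linked collagen fibres are the scaffold on which mineral is laid down.

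The lysyl oxidases share a short copper-binding stretch. It was located by a conserved pattern of amino acids, so part of its likeness between genes was set by the search, and *Lox* was not searched. The coding stretch is given 5′ to 3′ on the coding strand of mm10 for the 4 *Loxl* genes. The codons of its 4 histidines are in capitals.
Loxl1, chr9:58293720-58294381, minus strand: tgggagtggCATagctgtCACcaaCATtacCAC
Loxl2, chr14:69682316-69689037, plus strand: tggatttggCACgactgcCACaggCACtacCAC
Loxl3, chr6:83049995-83050125, plus strand: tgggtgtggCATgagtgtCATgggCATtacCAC
Loxl4, chr19:42598807-42599899, minus strand: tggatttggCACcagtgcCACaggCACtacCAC
In each of the 4 genes an intron splits this stretch after base 23 of 33, which is why the positions span more than 33 bases. The intron is 98 bases long in *Loxl3* and 6689 bases in *Loxl2*. *Loxl2* and *Loxl4* had 31 of the 33 bases in common, whereas *Loxl1* and *Loxl4* had 21.

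The transglutaminases carry their catalytic cysteine in another conserved stretch, shown with the cysteine codon in capitals.
Tgm2, chr2:158131350-158131370, minus strand: tacgggcagTGCtgggtgttt
F13a1, chr13:36946462-36946482, minus strand: tatggccagTGTtgggttttt
These stretches, also located by a conserved pattern of amino acids, were identical at 17 of 21 bases. Over all annotated transcripts, none of the 45 pairs of members had a stretch of 75 bases in common, the length of the reads.

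The deposited unit was FPKM, a read count scaled to the length of the transcript and to the mapped reads of the sample, which allows levels to be compared between genes. Summed over all genes, FPKM came to 431898 in the lowest sample and 486940 in the highest, and the depth, estimated from the steps between low values, was 4527327 to 7736816 mapped reads. The 7 canonical OB markers were above 0 in all samples and their FPKM summed to between 28370 and 54190 on day 10 and between 15670 and 38270 on day 14. Day 14 replicate 2 stood apart from the other samples of its day. The 10 chondrocyte genes summed to 2329 FPKM in it, against 180 and 160 FPKM in replicates 1 and 3 and 669 to 1302 FPKM on day 10, and the 14 myeloid genes summed to 20.4 FPKM in it, against 295 and 681 FPKM. The 9 endothelial genes summed to at most 11.0 FPKM in any sample, the 6 megakaryocyte and platelet genes to at most 17.7 FPKM, and the 7 mural and smooth muscle genes to between 402 and 857 FPKM. In sorted bulk samples, fewer cells of a type and less RNA per cell cannot be told apart.

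The design asked which genes of OBs differ between the earlier and the later day. Levels were compared as log2(FPKM + 0.1) with limma over the 19526 genes with a mean FPKM above 0.1, and fold changes are those of FPKM + 0.1. All 10 members passed this filter, through both days. None had an adjusted p under 0.05 (Benjamini-Hochberg over all genes tested), a call made for 0.0154% of all genes tested, and the adjusted p of the members ranged from 0.268 (*Tgm2*) to 0.992 (*Plod2*). An unadjusted p under 0.05 was found in 4 members, against 10.0% of all genes. Of these, *Loxl1*, *Loxl3* and *Tgm2* were higher on day 14 (5.60% of all genes) and *Loxl4* was lower (4.40% of all genes). A fold change over 2 with such a p was found in 3 members, against 3.83% of all genes, namely *Loxl1* and *Tgm2* in the higher direction (1.79% of all genes) and *Loxl4* in the lower (2.04% of all genes). Over all genes, these were 350 higher and 398 lower, a split that was 470 and 880 with array weights, 306 and 1371 without day 14 replicate 1, and 734 and 558 without day 14 replicate 2. In 1 member, *Tgm2*, the days did not overlap, which was so in 14.3% of all genes and with day 14 the higher in 7.59%. The median log2 fold change of the 10 members was 0.32, beside −0.04 over all genes tested.

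**Figure D1:**
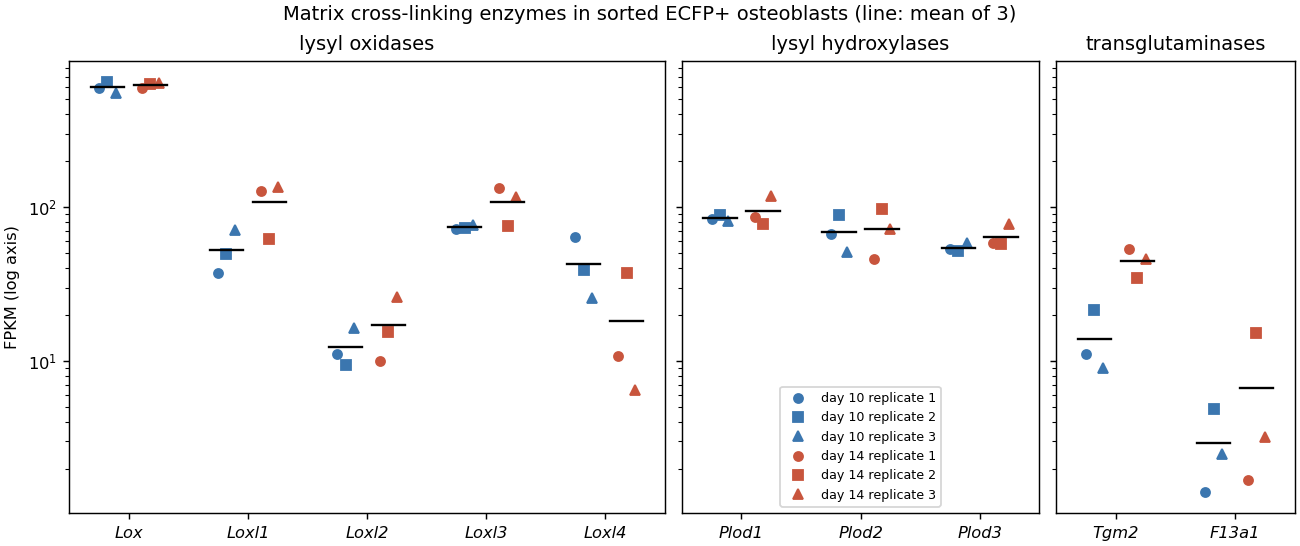
FPKM of the 10 members on a log axis, with each sample as a point, day 10 in blue, day 14 in red and the mean of 3 as a line. *Lox* lies between 554 and 653 FPKM in all 6 samples, and *Tgm2* is the member whose days do not overlap.

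*Lox*, the founding lysyl oxidase and the main one of bone collagen, was by far the most abundant member and hardly varied. Its gene lies on chromosome 18 of mm10. It had 598, 653 and 554 FPKM in day 10 replicates 1, 2 and 3, and 595, 633 and 643 FPKM in day 14 replicates 1, 2 and 3. The samples of the days were interleaved, and the highest value was 1.18 times the lowest. The means were 602 ± 49.5 FPKM (SD, n = 3) on day 10 and 624 ± 25.2 FPKM (SD, n = 3) on day 14, a log2 fold change of 0.05 with a 95% interval from −0.37 to 0.48 (adjusted p = 0.962 from limma). This interval covers ratios from 0.773 to 1.40, so a difference of 2-fold in either direction lay outside it. Among all 23284 genes, *Lox* ranked 73 on day 10 and 83 on day 14.

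*Loxl1*, on chromosome 9 from 58287738 to 58313186, is best known for its part in elastic fibres and had a higher mean on day 14. It had 37.1, 49.2 and 70.9 FPKM in day 10 replicates 1, 2 and 3. It had 126, 61.9 and 136 FPKM in day 14 replicates 1, 2 and 3. Replicates 1 and 3 of day 14 were above all other samples, while replicate 2 lay within the range of day 10. On the log2 scale, the fold change was 1.01 (standard error 0.34, 95% interval 0.24 to 1.78, adjusted p = 0.384 from limma), and the two-sided exact permutation test gave p = 0.2, where the smallest p that 3 samples against 3 allow is 0.1. Without day 14 replicate 2, it was 1.37 (adjusted p = 0.141 from limma). Its unadjusted p stayed under 0.05 without day 10 replicate 3 or day 14 replicate 2, and was 0.0654 to 0.104 without any of the other 4 samples.

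*Loxl4*, a lysyl oxidase with scavenger receptor domains before its catalytic part, was the member with the largest difference in the lower direction. It is on chromosome 19 from 42593982 to 42612813. It had 63.5, 39.1 and 25.7 FPKM in day 10 replicates 1, 2 and 3. It had 10.8, 37.2 and 6.52 FPKM in day 14 replicates 1, 2 and 3. Replicates 1 and 3 of day 14 were the lowest of all samples, and replicate 2 again lay within day 10. The log2 fold change was −1.52 (standard error 0.59, 95% interval −2.87 to −0.17, adjusted p = 0.445 from limma), with p = 0.2 in the two-sided exact permutation test. Without day 14 replicate 2, it was −2.24 (adjusted p = 0.127 from limma), and without day 14 replicate 3 it was −0.99 (adjusted p = 0.809 from limma). As for *Loxl1*, its unadjusted p stayed under 0.05 without day 10 replicate 3 or day 14 replicate 2 and was 0.0973 to 0.157 without any of the other 4 samples.

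*Loxl4* and *Loxl1* ordered the 6 samples in opposite ways. From the highest to the lowest *Loxl4*, the order was day 10 replicates 1 and 2, day 14 replicate 2, day 10 replicate 3 and then day 14 replicates 1 and 3. The summed OB markers fell into this same order, from 54190 to 15670 FPKM, and *Loxl1* followed the exact reverse. *Col1a1* and *Ibsp* had the highest values of the 7 markers in every sample. By itself, only *Ibsp* kept the order of *Loxl4*. *Alpl*, for one, was highest in day 14 replicate 2, at 1300 FPKM. The ratio of *Loxl1* to *Loxl4* was 0.585, 1.26 and 2.76 in day 10 replicates 1, 2 and 3, and 11.7, 1.66 and 20.9 in day 14 replicates 1, 2 and 3. Whether the OB or chondrocyte content of a sample has a part in these values was not tested.

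*Loxl3*, which has the same domain order as *Loxl4* and is known for its role in cartilage and the palate, was also higher in the same samples as *Loxl1*. The gene lies on chromosome 6 from 83034173 to 83052562. It had 72.1, 72.8 and 76.8 FPKM in day 10 replicates 1, 2 and 3, a narrow range. It had 133, 75.8 and 116 FPKM in day 14 replicates 1, 2 and 3. Replicates 1 and 3 of day 14 stood above the rest and replicate 2 lay within day 10. On the log2 scale, the fold change was 0.51 (standard error 0.21, 95% interval 0.02 to 1.00, adjusted p = 0.478 from limma), and the two-sided exact permutation test gave p = 0.2. Without day 14 replicate 2, it was 0.75 (adjusted p = 0.136 from limma), and its unadjusted p was 0.0841 to 0.151 without any of the other 5 samples. In the annotation, *Loxl3* shares 535 exon bases with *Htra2* on the other strand, and the library kit does not mark strand, so reads there cannot be assigned. *Htra2*, a mitochondrial protease gene, had 8.57 to 9.97 FPKM on day 10 and 12.4 to 15.2 FPKM on day 14.

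*Loxl2*, a further member of the group with scavenger receptor domains, had the lowest mean of the lysyl oxidases on both days, although on day 14 its range overlapped that of *Loxl4*, which was the lower of the pair in replicate 3. Its gene is on chromosome 14 from 69609068 to 69695834. It had 11.0, 9.35 and 16.3 FPKM in day 10 replicates 1, 2 and 3, and 9.94, 15.5 and 25.9 FPKM in day 14 replicates 1, 2 and 3. The days overlapped, and the highest value, in day 14 replicate 3, was 2.77 times the lowest. The log2 fold change of 0.41 had a 95% interval from −0.39 to 1.22 (adjusted p = 0.771 from limma).

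Within the family, *Lox* supplied most of the transcripts in every sample. The 5 lysyl oxidases summed to 783 ± 39.9 FPKM (SD, n = 3) on day 10 and 875 ± 52.0 FPKM (SD, n = 3) on day 14. The share of *Lox* in this sum was 76.5%, 79.3% and 74.5% in day 10 replicates 1, 2 and 3, and 68.0%, 76.9% and 69.4% in day 14 replicates 1, 2 and 3. *Loxl1* made up 4.75% to 9.53% on day 10, and 14.4%, 7.52% and 14.7% in day 14 replicates 1, 2 and 3. *Loxl4* made up 3.45% to 8.12% on day 10, and 1.24%, 4.52% and 0.703% in day 14 replicates 1, 2 and 3. The make-up of the family in day 14 replicate 2 thus lay within day 10 for *Lox*, *Loxl1* and *Loxl4*, and these shares were not tested.

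**Figure D2:**
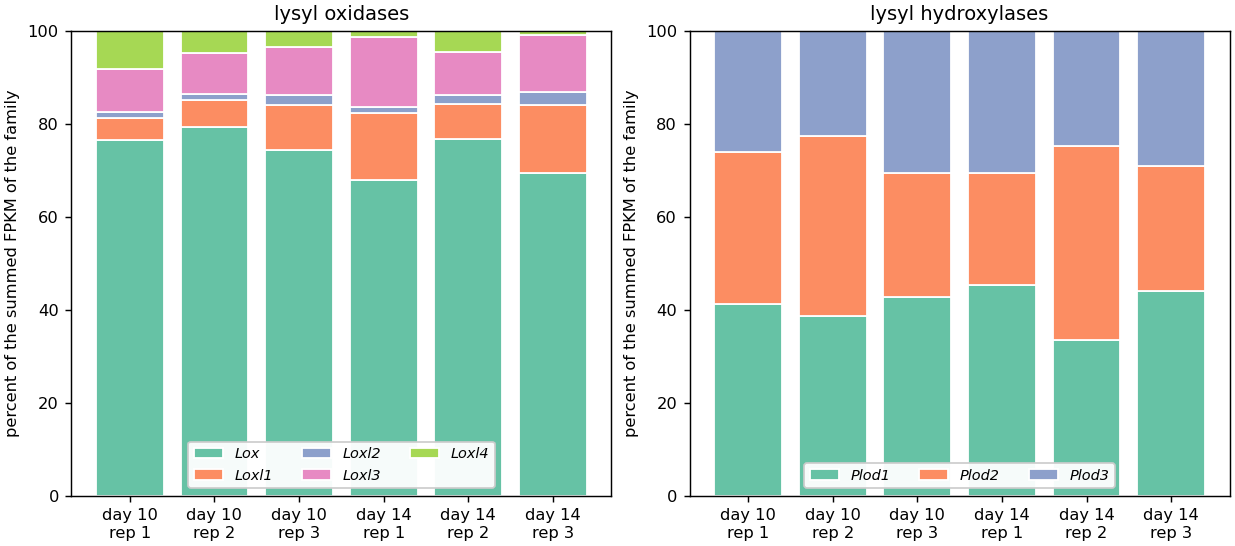
Stacked bars give each gene's percent of the summed FPKM of its family in every sample, lysyl oxidases on the left and lysyl hydroxylases on the right. *Lox* holds 68.0% to 79.3% of its family, and the share of *Loxl4* is smallest in day 14 replicates 1 and 3.

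The mean levels of the lysyl hydroxylases differed little between the days, while *Plod1* was above *Plod3* in every sample. *Plod1*, which hydroxylates lysines of the collagen helix and lies on chromosome 4 from 147909753 to 147936767, had 84.2, 88.5 and 81.7 FPKM in day 10 replicates 1, 2 and 3. It had 86.6, 77.9 and 118 FPKM in day 14 replicates 1, 2 and 3, with only replicate 3 outside the range from 77.9 to 88.5 FPKM held by the other 5 samples. This gave a log2 fold change of 0.13 (95% interval −0.28 to 0.54, adjusted p = 0.876 from limma). *Plod3*, which also attaches sugars to hydroxylysine and lies on chromosome 5 from 136987019 to 136996648, had 53.1, 51.6 and 58.4 FPKM in day 10 replicates 1, 2 and 3. It had 58.1, 57.4 and 77.6 FPKM in day 14 replicates 1, 2 and 3, where replicate 3 was again the highest. This gave a log2 fold change of 0.23 (95% interval −0.15 to 0.61, adjusted p = 0.709 from limma). *Plod3* shares 529 exon bases with *Znhit1* on the other strand, a gene with 10.7 to 21.3 FPKM per sample.

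*Plod2*, the enzyme that hydroxylates the ends of the collagen molecule and so sets the type of cross-link, varied more between samples than between days. The gene lies on chromosome 9 from 92542223 to 92608428. It had 67.3, 88.8 and 50.9 FPKM in day 10 replicates 1, 2 and 3, and 46.0, 97.5 and 71.6 FPKM in day 14 replicates 1, 2 and 3. The lowest and the highest sample were both of day 14. The log2 fold change was 0.03 with a 95% interval from −0.66 to 0.71 (adjusted p = 0.992 from limma), which covers ratios from 0.635 to 1.63. The share of *Plod2* among the 3 lysyl hydroxylases ran from 24.1% to 41.9%, with both ends on day 14, and that of *Plod1* from 33.5% to 45.4%. The isoforms of *Plod2*, which differ in this activity, are not separated by a value per gene.

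*Tgm2*, the tissue transglutaminase found inside and outside many cell types, was the member with the largest difference. The gene lies on chromosome 2 from 158116402 to 158146436. It had 11.1, 21.5 and 9.06 FPKM in day 10 replicates 1, 2 and 3. It had 53.1, 34.3 and 46.3 FPKM in day 14 replicates 1, 2 and 3. All samples of day 14 lay above those of day 10, including day 14 replicate 2, which lay within day 10 for *Loxl1*, *Loxl3* and *Loxl4*. The means were 13.9 ± 6.67 FPKM (SD, n = 3) on day 10 and 44.6 ± 9.51 FPKM (SD, n = 3) on day 14. The log2 fold change was 1.76 (standard error 0.32, 95% interval 1.03 to 2.48), a ratio of 3.38 in FPKM + 0.1, with an unadjusted p of 0.00047 and an adjusted p of 0.268 from limma. The two-sided exact permutation test gave p = 0.1, the smallest it allows.

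Leaving out 1 sample could change the size but not the direction of the *Tgm2* difference, since its days did not overlap. Its log2 fold change lay between 1.50 and 2.12 when each of the 6 samples was dropped, and the unadjusted p was under 0.05 in all of these fits and in the other 10 settings tried, whereas the adjusted p stayed at 0.131 or above in all 16. Endothelial cells and macrophages also express *Tgm2*. The summed endothelial genes were at 2.17 to 4.56 FPKM on day 10 and 5.43 to 11.0 FPKM on day 14, which did not overlap either. All 9 had a log2 fold change above 0 (46.5% of all genes), and in 3 the days did not overlap (7.59% higher on day 14). *Emcn* (1.94) and *Esam* (1.83) had an unadjusted limma p under 0.05 (5.60% higher on day 14). No gene of the list was above 2.39 FPKM in any sample, and their part in the *Tgm2* values was not tested. The summed myeloid genes were at 40.9 to 176 FPKM on day 10, whereas day 14 replicates 1, 2 and 3 had 295, 20.4 and 681 FPKM, and their part in the *Tgm2* values was not tested either. *Tgm2* shares 370 exon bases with *Rprd1b* on the other strand, a gene at 4.57 to 6.23 FPKM. It also shares 633 exon bases with *Gm20412* on the other strand, which is not among the genes listed and so has no FPKM.

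*F13a1* encodes the catalytic subunit of clotting factor XIII, which is made by macrophages and megakaryocytes and also by OBs and hypertrophic chondrocytes. The gene lies on chromosome 13 from 36867178 to 37050244. It had 1.40, 4.90 and 2.48 FPKM in day 10 replicates 1, 2 and 3. It had 1.68, 15.2 and 3.22 FPKM in day 14 replicates 1, 2 and 3. Day 14 replicate 2 had the highest value, and the other samples of day 14 lay within day 10. The log2 fold change of 0.74 had a 95% interval from −0.995 to 2.48 (adjusted p = 0.815 from limma), and without day 14 replicate 2 it was −0.14. These values rest on an estimated 25.6 to 338 reads per sample, the fewest of any member.

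The sample with the highest *F13a1* had the lowest summed myeloid and the highest summed chondrocyte FPKM of the 6. *Comp* at 1383 FPKM and *Col2a1* at 688 FPKM were the largest parts of that chondrocyte sum. *Col9a1*, *Col9a2* and *Matn1* were instead highest in day 10 replicate 1, at 22.6, 39.6 and 0.45 FPKM, against 17.6, 36.6 and 0.38 FPKM in day 14 replicate 2. Of the 14 myeloid genes, 9 were above 0 in day 14 replicate 2, among them *Cd14* at 8.63 FPKM, *Lyz2* at 6.35 FPKM, *Csf1r* at 2.48 FPKM and *Ptprc*, which encodes CD45, at 0.13 FPKM. The other 5, *Adgre1* (listed under its older symbol *Emr1*), *C1qa*, *C1qb*, *Cd163* and *Fcer1g*, were at 0 FPKM there. Of the 6 megakaryocyte and platelet genes, 4 were above 0 in this sample, namely *Gp1bb* at 3.17 FPKM, *Ppbp* at 0.58 FPKM, *Itga2b* at 0.52 FPKM and *Gp9* at 0.28 FPKM, while *Pf4* and *Gp6* were at 0 FPKM. *Col10a1*, the collagen of hypertrophic cartilage, was at 67.4 FPKM in this sample, against 13.8 to 26.1 FPKM on day 10 and 2.99 and 0.19 FPKM in day 14 replicates 1 and 3. The part of these cell types in the *F13a1* values was not tested.

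**Figure D3:**
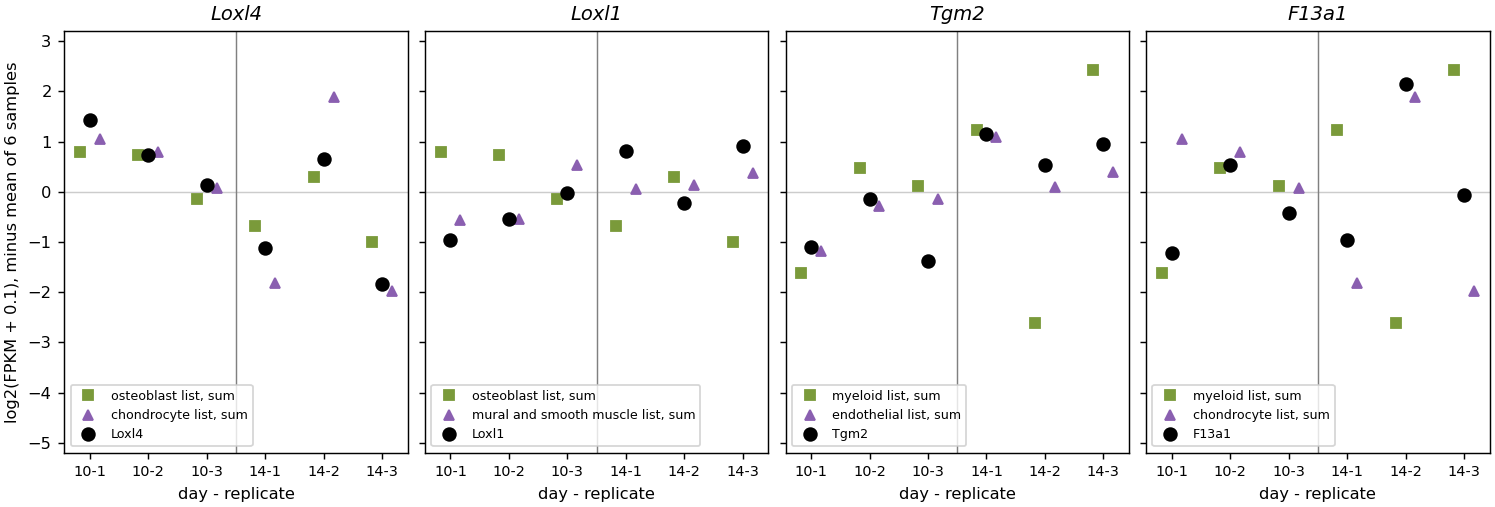
Each panel gives log2(FPKM + 0.1) minus its mean over the 6 samples for 1 member (black) and for the summed FPKM of the marker lists named in the panel, by day and replicate. *Loxl4* orders the samples as the sum of the OB list does, and *Loxl1* in reverse. *F13a1* is highest in day 14 replicate 2, where the sum of the myeloid list is lowest.

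**Figure D4:**
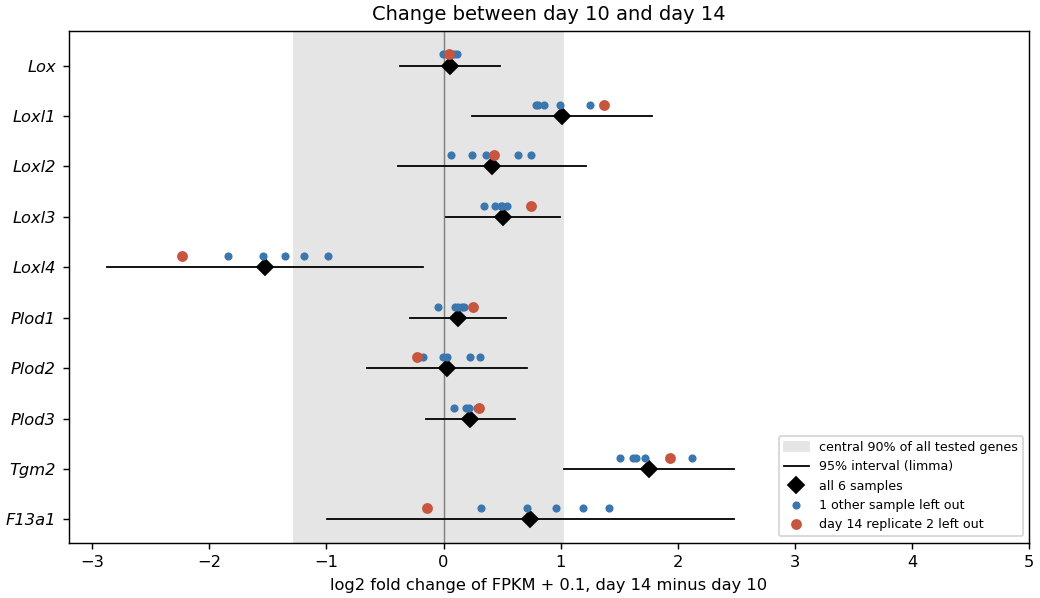
Log2 fold change of each member (diamond) with its 95% interval from limma, and above it the values with 1 sample left out, over a grey band from −1.28 to 1.02 that holds the central 90% of all genes tested. The intervals of *Loxl1*, *Loxl3*, *Loxl4* and *Tgm2* lie on 1 side of 0, and leaving out day 14 replicate 2 (red) moves *Loxl4* to −2.24 and *F13a1* to −0.14.

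The order of the mean levels below *Lox* was not the same on the 2 days. On day 10, *Lox* (602 FPKM) was followed by *Plod1* (84.8), *Loxl3* (73.9), *Plod2* (69.0), *Plod3* (54.4), *Loxl1* (52.4), *Loxl4* (42.8), *Tgm2* (13.9), *Loxl2* (12.2) and *F13a1* (2.93 FPKM), as means of 3 samples. *Lox* was above *Plod1*, *Plod1* above *Loxl3*, *Loxl4* above *Tgm2* and *Loxl2* above *F13a1* in all 3 samples with no overlap, and the other neighbours overlapped. On day 14, *Lox* (624 FPKM) was followed by *Loxl1* and *Loxl3* (108 FPKM each), *Plod1* (94.0), *Plod2* (71.7), *Plod3* (64.4), *Tgm2* (44.6), *Loxl4* (18.2), *Loxl2* (17.1) and *F13a1* (6.71 FPKM). There, only *Lox* and *Loxl1*, and *Plod3* and *Tgm2*, did not overlap with each other as neighbours. By rank among all genes listed, *Tgm2* stood at 3555 on day 10 and 1371 on day 14, and *Loxl4* at 1329 and 2976.

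The abundance of the enzymes was also set against *Col1a1*, the gene of the main collagen chain of bone and the chief substrate of *Lox*. *Col1a1* had 27384, 34157 and 17339 FPKM in day 10 replicates 1, 2 and 3, and 15730, 21088 and 14151 FPKM in day 14 replicates 1, 2 and 3, with overlapping days. Per 1000 FPKM of *Col1a1*, *Lox* had 21.9, 19.1 and 32.0 FPKM in day 10 replicates 1, 2 and 3, and 37.9, 30.0 and 45.5 FPKM in day 14 replicates 1, 2 and 3. These ranges overlapped through day 10 replicate 3 and day 14 replicate 2. Per the same amount of *Col1a1*, *Tgm2* had 0.404 to 0.629 FPKM on day 10 and 1.63 to 3.38 FPKM on day 14, and it was the only member whose days did not overlap on this scale. No test was made of these ratios.

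Among the 9 genes that act with the lysyl hydroxylases, 3 were lower on day 14 at an unadjusted p under 0.05 (4.40% of all genes tested), none was higher and none had an adjusted p under 0.05. The median log2 fold change of the list was −0.51, beside −0.04 over all genes. *P3h4* (listed as *Leprel4*), whose protein is needed for lysyl hydroxylation of the helix, had 190, 136 and 115 FPKM on day 10 and 62.3, 99.7 and 76.7 FPKM on day 14 in replicates 1, 2 and 3. Its days did not overlap (log2 fold change −0.88, standard error 0.24, adjusted p = 0.319 from limma). *Fkbp10*, which encodes a chaperone that supports the enzyme of *Plod2*, had 724, 576 and 475 FPKM on day 10 and 278, 490 and 295 FPKM on day 14, with overlap through day 14 replicate 2 (log2 fold change −0.77, adjusted p = 0.407 from limma). *P3h1* (listed as *Lepre1*), a prolyl 3-hydroxylase, differed by −0.70 (adjusted p = 0.360 from limma) and *Serpinh1*, the collagen chaperone HSP47, by −0.51 (adjusted p = 0.527 from limma), both with days that did not overlap. In all, the days did not overlap in 3 of the 9 genes, each lower on day 14, against 6.67% of all genes. Per 1000 FPKM of *Col1a1*, *Fkbp10* had means of 23.6 FPKM on day 10 and 20.6 FPKM on day 14. On this scale *Serpinh1* had 50.4 and 53.1 FPKM, and the days of both genes overlapped. The rest of the list was not set against *Col1a1*.

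The prolyl 4-hydroxylases use the same cofactors as the lysyl hydroxylases and stabilise the collagen helix. Of the 4 subunit genes, 2 were lower (4.40% of all genes tested) and 1 was higher (5.60%) on day 14 at an unadjusted p under 0.05, and the median log2 fold change was −0.35. *P4ha1* differed by −0.47 (adjusted p = 0.398 from limma) and *P4ha2* by −0.43 (adjusted p = 0.462 from limma), and neither overlapped between the days. *P4ha3*, a further catalytic subunit, went the other way, with 61.9, 78.2 and 110 FPKM in day 10 replicates 1, 2 and 3 and 160, 113 and 175 FPKM in day 14 replicates 1, 2 and 3. Its days did not overlap (log2 fold change 0.86, standard error 0.25, adjusted p = 0.340 from limma). Nor did those of the other 3 subunit genes, which were lower on day 14, against 6.67% of all genes lower and 7.59% higher without overlap.

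Of the 12 genes for the processing, copper supply and docking of lysyl oxidases, 11 passed the filter, with a median log2 fold change of 0.44. At an unadjusted limma p under 0.05, 1 was higher on day 14 (5.60% of all genes tested) and none was lower. The days did not overlap in 5 genes that were higher on day 14 (7.59% of all genes) and in 1 that was lower (6.67%). *Fbln5*, the gene of a fibulin that binds *Loxl1* protein to elastic fibres, had 15.4, 14.6 and 21.0 FPKM in day 10 replicates 1, 2 and 3, and 35.3, 37.7 and 39.0 FPKM in day 14 replicates 1, 2 and 3. All samples of day 14 were above those of day 10 (log2 fold change 1.15, standard error 0.18, adjusted p = 0.165 from limma), and those of day 14 lay close together. *Bmp1*, the protease that cuts the *Lox* propeptide, had 310 to 417 FPKM on day 10 and 297 to 335 FPKM on day 14 (log2 fold change −0.19, adjusted p = 0.794 from limma). *Atp7a*, the copper pump that loads secreted enzymes, had 3.86 to 5.42 FPKM on day 10 and 5.60 to 7.22 FPKM on day 14 (log2 fold change 0.44, adjusted p = 0.568 from limma). *Fn1*, the gene of fibronectin, a substrate of transglutaminases to which *Lox* also binds, had 956 to 1009 FPKM on day 10 and 1216 to 1471 FPKM on day 14 (log2 fold change 0.47, adjusted p = 0.537 from limma).

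Of the 9 lysyl oxidase substrates, 2 were lower on day 14 at an unadjusted p under 0.05 (4.40% of all genes tested) and none was higher, with a median log2 fold change of −0.42. These were the cartilage-type chains *Col11a1* (log2 fold change −1.52, adjusted p = 0.384 from limma) and *Col11a2* (log2 fold change −2.18, adjusted p = 0.420 from limma). *Col3a1* had 5271, 6750 and 9676 FPKM in day 10 replicates 1, 2 and 3, and 11392, 7900 and 15502 FPKM in day 14 replicates 1, 2 and 3, with replicate 2 of day 14 again within day 10. Of the 8 transglutaminase substrates, *Nid1*, which encodes a basement membrane protein, was higher at an unadjusted p under 0.05 (5.60% of all genes tested), with 66.7 to 128 FPKM on day 10 and 134 to 233 FPKM on day 14 (log2 fold change 0.99, adjusted p = 0.340 from limma), and the median of the list was −0.15. The 3 fibrinogen chain genes of this list, whose proteins *F13a1* acts on in clotting, were at no more than 0.81 FPKM in any sample.

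The 8 genes listed as other cross-linking enzymes, which include *F13b* for the non-catalytic subunit of factor XIII, were low apart from peroxidasin. *Pxdn*, whose protein cross-links collagen IV of basement membranes, had 31.2, 32.5 and 57.3 FPKM in day 10 replicates 1, 2 and 3, and 52.4, 29.0 and 111 FPKM in day 14 replicates 1, 2 and 3 (log2 fold change 0.51, adjusted p = 0.784 from limma). *Tgm4* had 1.99 to 3.59 FPKM and *Tgm1* 0.56 to 1.33 FPKM, and the other transglutaminase genes and *F13b* were each below 1 FPKM in every sample. No gene of this list had an unadjusted p under 0.05, and the median log2 fold change was 0.10.

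**Figure D5:**
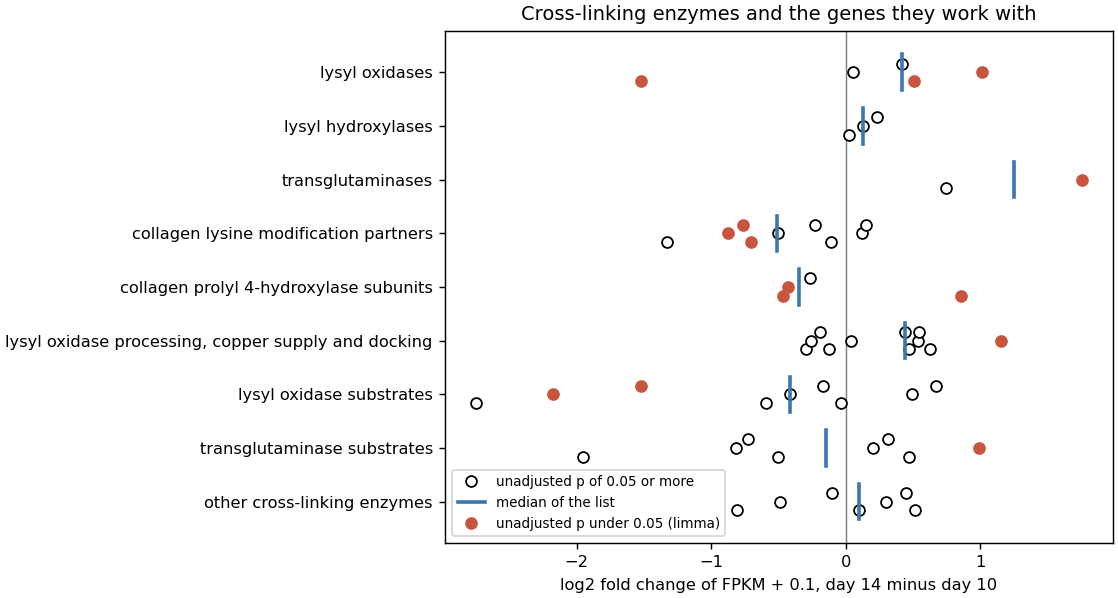
Log2 fold change of every tested gene of each list (points), filled where the unadjusted p from limma was under 0.05, with the median of the list as a blue bar. The medians run from −0.51 for the partners of the lysyl hydroxylases to 0.44 for the processing and docking genes, apart from the 2 transglutaminases at 1.25.

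For the member with the largest difference in each family, the genes of at least 1 FPKM with the most similar profile over the 6 samples were found by the root-mean-square distance between centred log2 values, as a description over 11162 genes. Nearest to *Loxl4* were *Ckb*, the brain-type creatine kinase gene, at a distance of 0.162, *Hapln3*, a hyaluronan link protein gene, at 0.165 and *Mme*, which encodes the membrane protease neprilysin, at 0.175, beside a median of 1.16 over all genes. *Ckb* had 129, 92.5 and 60.8 FPKM in day 10 replicates 1, 2 and 3, and 29.3, 81.2 and 18.5 FPKM in day 14 replicates 1, 2 and 3. Nearest to *Tgm2* were *Prss12* at 0.214, *C1qtnf7* at 0.327 and *Trf*, the transferrin gene, at 0.336, beside a median of 1.02. *Trf* had 30.6, 44.0 and 34.7 FPKM in day 10 replicates 1, 2 and 3, and 113, 77.6 and 88.8 FPKM in day 14 replicates 1, 2 and 3. Nearest to *Plod3* were *Dnm1* at 0.0351, *Spats2* at 0.0486 and *Mtch1* at 0.0534, beside a median of 0.348, since the profile of *Plod3* was nearly flat. Among the members themselves, *Plod1* and *Plod3* were the closest pair, at 0.112.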

How the data were processed

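ECFP+ OBs were digested out with 0.25% trypsin for 15 min and 0.2% collagenase II for 40 min, and SMART-Seq libraries were sequenced as 75-base single-end reads. The authors called bases with Casava 1.8.2, mapped reads to mm10 with TopHat2 2.0.13, Bowtie2 2.2.3 and SAMtools 0.1.19, and deposited FPKM per gene from Cufflinks 2.2.1. The annotation and the handling of reads with several positions are not given in the sources used here. FPKM assumes a known effective length and is relative to all mapped reads of a sample, so highly expressed genes affect the others. In the file of day 14 replicate 2, 25 symbols turned into dates were restored by position. No 2 samples were identical.

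Groups followed the sample titles. Days were compared on log2(FPKM + 0.1) for genes with a mean FPKM above 0.1, by limma 3.58.1 (R 4.3.3). The linear model held the day only, with trended empirical Bayes and Benjamini-Hochberg adjustment over 19526 genes. The fit was also run on simulated data with independent noise for each gene. That setting lacks a sample that stands apart across many genes, and no result here rests on it. Exact permutation tests were two-sided. Settings tried were pseudocounts of 1 and 0.01, no filter, a mean of at least 1 FPKM, 3 scalings, no trend, array weights, the replicate number as a block, and leaving out each sample. Marker and partner lists held 109 genes together with the members, 6 of them matched by an older symbol. Named are all 10 members, up to 4 genes per list with the smallest p or a direct tie to a member, and the 3 nearest profiles for 1 member of each family. The members and lists were chosen with earlier results of these data known. Reads were estimated from values up to 0.3 FPKM of genes with 1 transcript of 1500 to 8000 bases, assuming 200-base fragments, and 74.2% to 79.0% of these values came out within 0.1 of a whole read. A count of 3 reads on 1000 bases then corresponds to 0.388 to 0.663 FPKM, which covers counting error only. Positions and sequences are from GENCODE vM21 on mm10.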

Additional observations from a re-analysis of the deposited data

How the results depend on the processing

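With 3 samples per day, no gene could reach an exact permutation p under 0.1. The number of members over 2-fold with an unadjusted p under 0.05 was 3, and 1 (*Tgm2*) without the mean-variance trend, 2 with a pseudocount of 1, scaling to the same FPKM sum or quantile normalization, and 1 to 3 when each sample was left out. It was 1 without day 10 replicate 1 or 2 and without day 14 replicate 1 or 3. No member had an adjusted p under 0.05 in limma under any of the 16 settings. The number of all genes over 2-fold with an unadjusted p under 0.05 was 748, and 363 with a pseudocount of 1, 476 with a mean of at least 1 FPKM, 1350 with array weights and 433 to 1677 when each sample was left out (433 without day 10 replicate 1, 1677 and 1292 without day 14 replicates 1 and 2). The number of genes with an adjusted p under 0.05 was 3, and 3 to 8 when each sample was left out (8 without day 14 replicate 2, 5 without day 10 replicate 2 or 3). After quantile normalization, the log2 fold changes of *Lox* (−0.16), *Plod1* (−0.0244) and *Plod2* (−0.0760) changed sign, as did *Plod2* (−0.0001) after scaling to the same FPKM sum. Leaving out each sample gave −0.0037 to 0.11 for *Lox*, −0.0456 to 0.25 for *Plod1*, −0.23 to 0.31 for *Plod2* and −0.14 to 1.41 for *F13a1*. The cause was not tested. When the replicate number entered as a block, an adjusted p under 0.05 was found in 2 genes, and 839 were over 2-fold with an unadjusted p under 0.05, 3 of them members. The labels give same-numbered samples only a number in common. Across genes, their deviations from the mean of the day had r = 0.058, −0.00584 and 0.0887. Pairs with different numbers had r from −0.0978 to 0.0202, and not every sample correlated best with its own number. With 3 samples per day, these values cannot show whether same-numbered samples shared a batch. *F13a1* is the member whose depth limits it most.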
